A study of Mus musculus with 8 samples.

Results

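This section describes 37 mouse genes of the centromere, the kinetochore and the spindle checkpoint in colonic epithelium targeted for Ccna2. They were chosen by gene symbol from a list of known components, out of 35963 gene symbols in the count table. The choice was made with earlier results of these data known, so their shares beside those of all genes are descriptions. All 37 passed the filter on low counts. RNA was sequenced from cells released from the proximal colon of mice aged 4 weeks. The 4 control libraries came from Ccna2 fl/fl mice, which their labels call wild type. The 4 libraries labelled Ccna2-KO came from Ccna2 fl/fl vil-Cre mice, so both groups carry the floxed gene and 1 group carries Cre driven by the villin promoter of intestinal epithelium. The labels do not state that each library came from a separate mouse, and p-values therefore measure the spread between these libraries, which may be technical.

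The kinetochore is the protein assembly that joins a chromosome to spindle microtubules in mitosis. It is built on nucleosomes that hold the histone variant Cenpa, through an inner layer of Cenp proteins and an outer layer, the KMN network, that binds microtubules. The spindle checkpoint delays the separation of sister chromatids until kinetochores are attached, and the chromosomal passenger complex corrects faulty attachments. In colonic epithelium these genes are known to be expressed mainly in the dividing cells of the crypt. In bulk RNA, fewer cells of a type and less RNA per cell cannot be told apart.

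Ccna2, which encodes cyclin A2, had 54.3, 25.9, 11.9 and 18.3 CPM (counts scaled to a common library size, with TMM factors) in control replicates 1 to 4. The libraries labelled Ccna2-KO had 18.2, 26.6, 26.6 and 16.2 CPM. The groups overlapped and the gene did not pass the test (log2 fold change -0.33 ± 0.41 SE, adjusted p = 0.673), so the groups are called by their labels and every direction rests on those labels. The sources used here do not say which exons Cre removes. Epcam, an epithelial adhesion protein, was near the same level in both groups (means of 1884 and 1928 CPM), and 0 of 10 epithelial markers passed in either direction (summed level 22398 to 25679 CPM in the controls, and 22241 to 29662 CPM under the Ccna2-KO label). The summed level of 12 leukocyte markers was 57.2 to 122 CPM in the controls, lowest in control replicate 1, and between 23.3 and 34.0 CPM in the other group. Of the 10 that were tested, 6 fell and 0 rose, where 5.71% of all genes tested were called lower and 6.4% higher. The part of these markers in the results below was not tested. The summed level of 7 stromal markers was 8.18 to 16.9 CPM in the controls and between 10.4 and 30.6 CPM in the other group; 1 of 5 tested, Pecam1, fell. No marker of these 3 lists was at 0 in all libraries. The labels also number the libraries, and the numbers form a low set (595 to 598: control replicates 2, 3 and 4 with Ccna2-KO replicate 4) and a high set (621 to 641: control replicate 1 with Ccna2-KO replicates 1, 2 and 3). The labels name no sets, and the split was made here at the largest gap between the numbers. The meaning of the numbers is not stated in the labels.

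Many promoters of genes active in mitosis hold a cell cycle homology region (CHR), a short element known to bind the DREAM and MuvB complexes, and CCAAT boxes, known to bind NF-Y. RefSeq promoter windows on GRCm38.p6 were found for 32 of the 37 genes. Of the 32 genes, 15 hold CHR letters within 50 bases of the start. The sequences below come from some of those 15, and the choice of the 37 genes did not use these letters. Each is 30 bases, 5′ to 3′ on the strand of the gene, with the CHR letters in capitals (TTTGAA or TTCGAA, read as TTCAAA or TTCGAA where the match is on the opposite strand). The genes shown are among those with values in every library below that hold a match within 50 bases of the start.
Casc5: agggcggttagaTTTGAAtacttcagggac
Ndc80: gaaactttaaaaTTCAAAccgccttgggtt
Cenpa: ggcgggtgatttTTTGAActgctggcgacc
Cenpf: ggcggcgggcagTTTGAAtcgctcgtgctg
Kntc1: ttctcccgccaaTTCAAAtcagtggcaggg
Bub1: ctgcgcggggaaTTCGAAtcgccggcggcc
Bub1b: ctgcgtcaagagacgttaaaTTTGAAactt
Bub3: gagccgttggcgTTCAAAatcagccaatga
Aurka: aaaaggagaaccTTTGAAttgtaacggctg
Plk1: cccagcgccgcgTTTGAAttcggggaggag

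These stretches lie at chr2:119047138-119047167 (Casc5, plus strand), chr17:71526811-71526840 (Ndc80, minus), chr5:30666890-30666919 (Cenpa, plus) and chr1:189688067-189688096 (Cenpf, minus). The others are at chr5:123749706-123749735 (Kntc1, plus), chr2:127831828-127831857 (Bub1, minus), chr2:118598231-118598260 (Bub1b, plus), chr7:131560315-131560344 (Bub3, plus), chr2:172370521-172370550 (Aurka, minus) and chr7:122159453-122159482 (Plk1, plus). In all but Kntc1 and Bub3 the element begins after the annotated start, between 3 bases (Cenpf) and 41 bases (Bub1b) into the transcript. In Kntc1 it begins 8 bases before the start. In Bub3 it begins 43 bases before the nearer annotated start and 167 bases before a farther start. The 120 bases before the start of Cenpa (chr5:30666766-30666885, plus strand) show a second feature, 2 CCAAT boxes on the opposite strand, in capitals.
Cenpa, before the start: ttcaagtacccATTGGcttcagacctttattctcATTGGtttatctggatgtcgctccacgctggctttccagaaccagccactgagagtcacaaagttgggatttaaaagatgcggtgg

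In the 250 bases before the start, searched on both strands, 7 of the 32 genes (21.9%) held TTTGAA or TTCGAA, against 19.6% of 27025 genes with a window and 15.3% of those tested here. CCAAT was present in 21 (65.6%), against 37.5% of all genes and 40.2% of tested genes. An E2F core (spelled TTCCCGC or TTGGCGC, and also searched as TTCGCGC or as TTGCCGC) was present in 4 (12.5%), against 9.01% of all genes and 14.7% of tested genes. The CHR and E2F shares depended on the window. In 300 bases, from 250 before to 50 after the start, 17 of 32 genes (53.1%) held CHR letters, against 21.7% of all genes. In the same window 7 (21.9%) held an E2F core, against 10.9% of all genes and 17.6% of tested genes. CCAAT was there in 23 (71.9%), against 41.1% of all genes and 42.8% of tested genes. Within 50 bases on either side of the start, a window chosen after seeing where the matches lay, 15 (46.9%) held CHR letters. This was so for 6.12% of all genes and 4.83% of 11625 genes with a window among those tested here. The 17 genes with the element in the 300 bases had a median log2 fold change of 1.07 between the labelled groups and 7 of them rose. The other 15 had a median of 0.97 and 6 rose. A match of letters is a description of the sequence and not a binding site.

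Between the labelled groups, 16 of the 37 genes were called higher under the Ccna2-KO label, 13 of them in the KMN network, the corona and the checkpoint, and no gene of the 37 was called lower. With edgeR's quasi-likelihood test and a threshold of 0.05 on adjusted p, 16 of the 37 passed, all higher, where 6.4% of the 15893 genes tested were called higher and 5.71% lower. The fitted log2 fold change was positive for all 37 (0.06 to 1.78), with a median of 1.07 against -0.01 over all genes tested. In 12 of the 37, each of the 4 libraries labelled Ccna2-KO lay above each control, which was so for 9.41% of all genes tested; the reverse was so for 0 of the 37 and 9.6% of all genes. By role, 1 of 12 centromere genes, 6 of 8 genes of the KMN network and 4 of 4 of the corona rose. So did 3 of 5 of the checkpoint, 1 of 4 of the passenger complex and 1 of 4 of the spindle kinases with Tpx2. In the same order, the median log2 fold changes were 1.01, 1.31, 1.26, 1.21, 0.99 and 0.87. A difference between roles was not tested. The libraries held 25960180 to 33028486 estimated counts on named genes, and those of the 37 genes ran from 24 to 2716 per library.

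**Figure D1:**
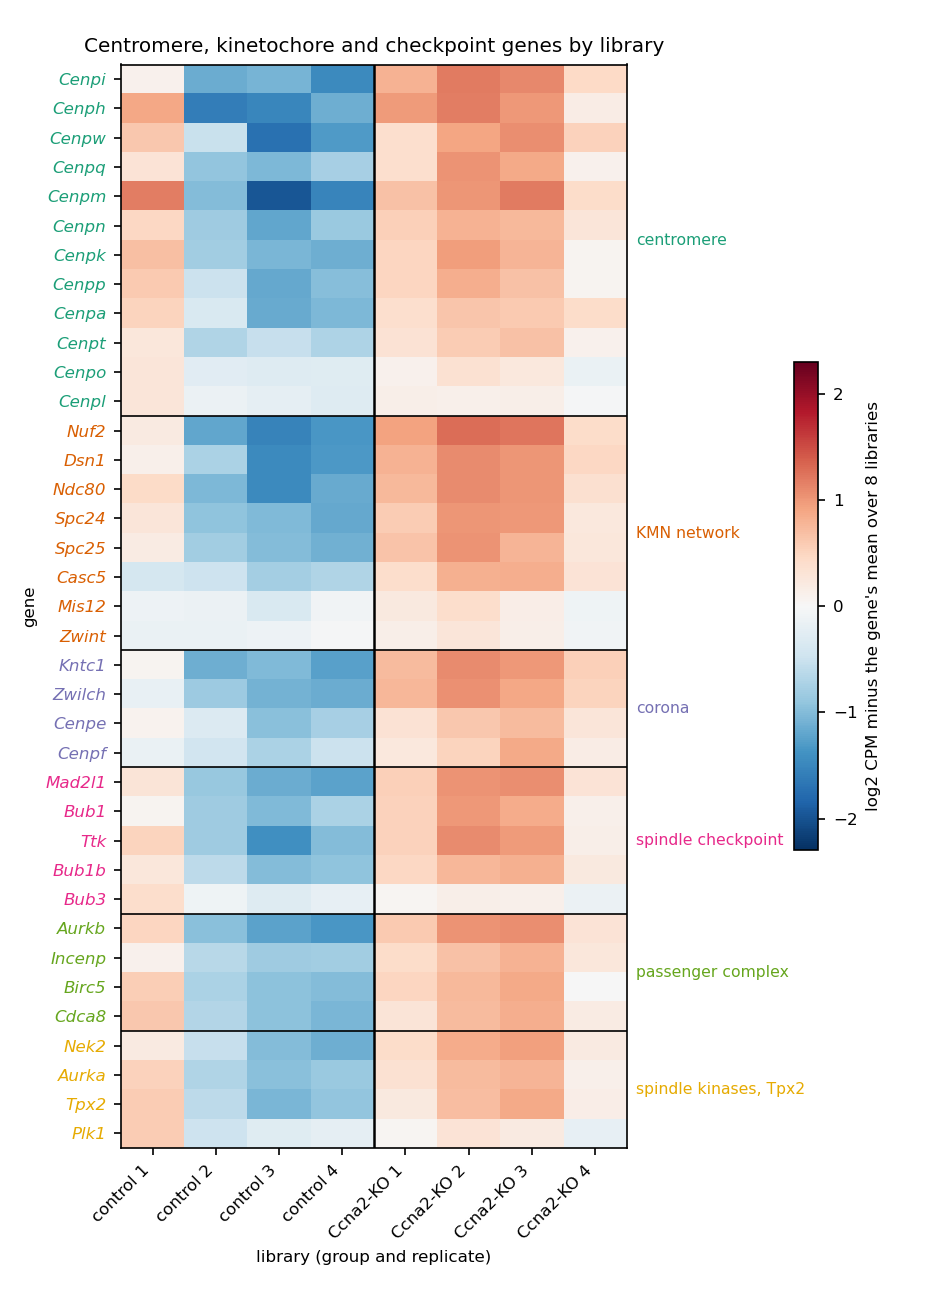
Level of each of the 37 genes (rows, grouped by role) in each library (columns), as log2 CPM minus the mean of the gene over the 8 libraries; red is higher and blue is lower. Control replicates 2, 3 and 4 are the blue columns and hold the lowest value of all 37 genes, while in control replicate 1 the median over the genes is 0.28 above their means.

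Control replicate 1 stood apart from the other controls over all genes, with a chi-square per degree of freedom of 131 to 161 against each of them. The other 3 gave 21.4 to 45.5 among themselves. Control replicate 1 was about as far from the libraries labelled Ccna2-KO, at 111 to 175. Control replicate 1 stood apart from the other controls in these genes too. It was the highest control for 35 of the 37, against 40.5% of all genes tested, and the median difference from the mean of the other 3 controls was 1.26 on the log2 CPM scale, against 0.01 over all genes tested. Control replicates 2, 3 and 4 held the lowest value of all 37 genes, and Ccna2-KO replicates 2 and 3 the highest of 34. Control replicate 1 exceeded at least 1 library labelled Ccna2-KO for 23 genes and all 4 of them for 3 genes, Cenpl, Bub3 and Plk1. Mki67, a marker of cycling cells, also had its highest control value there, 135 CPM beside 88.6, 75.3 and 86.5 CPM, but stayed below the lowest library labelled Ccna2-KO (241 CPM). Without control replicate 1, 32 of the 37 rose, where 15.1% of all genes were called higher, and 0 fell (13.4% of all genes were called lower). Leaving out another library gave 5 to 15. Over all genes, those fits gave 572 to 947 higher calls, against 1017 with all libraries. The low count of 5 among the 37 came without Ccna2-KO replicate 3. Counts of 6 to 9 came without Ccna2-KO replicate 2 (6) or 1 (9), or without control replicate 2 (7), 4 (7) or 3 (8). 5 genes, Cenpi, Casc5, Cenpf, Zwilch and Kntc1, passed in each of these 8 fits. Of the other genes called with all libraries, Incenp passed in 7, Dsn1 in 6, Nuf2 in 4 and Bub1 in 3. Spc24, Spc25, Cenpe, Bub1b, Mad2l1 and Nek2 passed in 2 fits each, and Ndc80 in 1.

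Each number set holds a single library of 1 group, so no test was made inside a set. In the high set, the mean of Ccna2-KO replicates 1, 2 and 3 exceeded control replicate 1 for 32 of the 37 genes, with a median difference of 0.37 (log2 CPM), against -0.01 over all genes tested. In the low set, Ccna2-KO replicate 4 exceeded the mean of control replicates 2, 3 and 4 for all 37, with a median of 1.06, against 0.01 over all genes. When the number set entered the model, 19 of the 37 rose and 0 fell (9.29% of all genes were called higher and 8.9% lower), and the median log2 fold change was 0.74. Effects of the single libraries and of the set cannot be told apart.

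**Figure D2:**
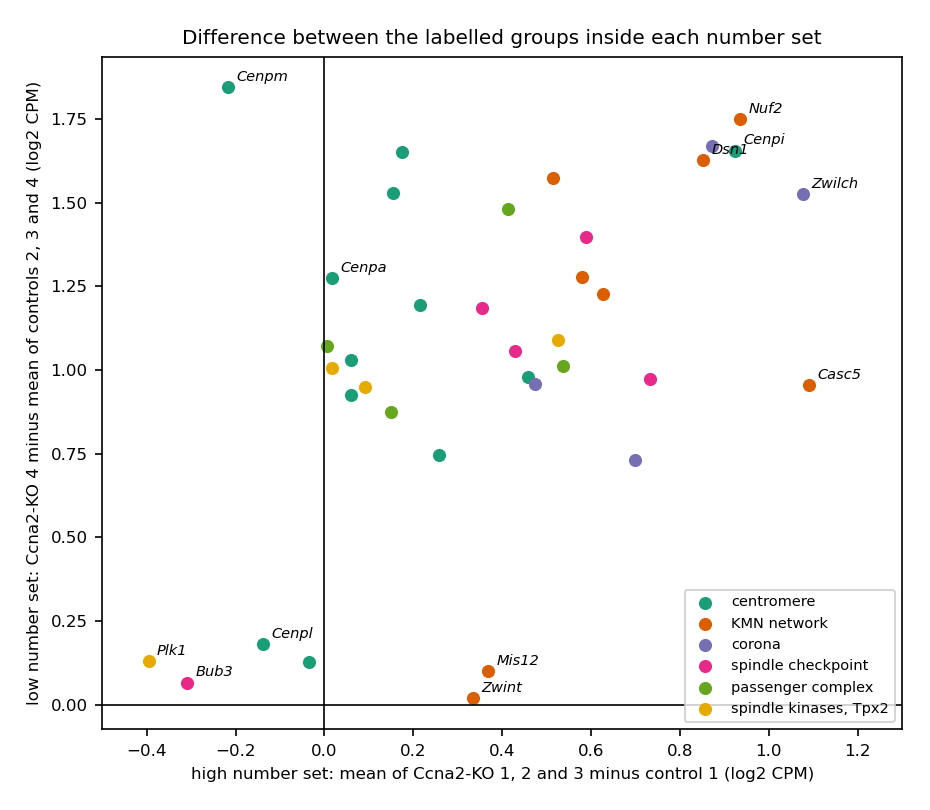
Difference between the labelled groups in log2 CPM inside the high number set (horizontal axis) and inside the low number set (vertical axis), 1 point per gene, coloured by role. Casc5 and Zwilch lie farthest right, at 1.09 and 1.08, while Plk1, Bub3, Cenpm, Cenpl and Cenpo lie left of 0; all 37 genes lie above 0 on the vertical axis.

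Most genes of the inner centromere layer did not pass the test, and control replicate 1 was the highest control for all 12 of them. Cenpa, the histone H3 variant that marks centromeres, had 25.5, 13.9, 7.96 and 8.66 CPM in control replicates 1 to 4 and 23.1, 27.6, 27.0 and 23.96 CPM in those labelled Ccna2-KO. The libraries labelled Ccna2-KO differed little among themselves and overlapped with control replicate 1 only. The log2 fold change was 0.86 ± 0.33 (SE, adjusted p = 0.132), and 1.33 without control replicate 1 (adjusted p = 0.00116). Cenpa did not pass when any other library was left out (adjusted p up to 0.280). Cenpi, a subunit of the constitutive centromere network that takes part in loading new Cenpa, was the centromere gene that rose. It had 5.02, 2.11, 2.21 and 1.70 CPM in the controls and 8.15, 10.7, 10.0 and 6.43 CPM in the libraries labelled Ccna2-KO, with no overlap (1.68 ± 0.34, adjusted p = 0.0144). 1 annotated transcript of Cenpi was listed at 0 in all 4 controls and at 0.990, 1.40, 1.05 and 0.581 CPM in the libraries labelled Ccna2-KO, and it held 8.57% of the counts of the gene.

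Cenpl, another subunit of the same network, had 10.4, 7.86, 7.47 and 6.97 CPM in the controls and 9.47, 9.35, 9.46 and 8.43 CPM in the libraries labelled Ccna2-KO. Control replicate 1 was above all 4 of those libraries, and the log2 fold change was 0.17 ± 0.16 (adjusted p = 0.550). Cenpo did not pass either (0.27 ± 0.18, adjusted p = 0.390). The remaining network genes, Cenph, Cenpk, Cenpm, Cenpn, Cenpp, Cenpq, Cenpt and Cenpw, had log2 fold changes of 0.80 (Cenpt) to 1.29 (Cenph), with adjusted p of 0.0587 (Cenpq) to 0.299 (Cenpm). Cenpm showed how far control replicate 1 could lie from its group. It held 6.52 CPM there, 1.44, 0.738 and 0.9996 CPM in the remaining controls, and 4.58, 5.82, 6.58 and 3.84 CPM under the Ccna2-KO label. Each of these 8 genes passed without control replicate 1, and none of the 8 passed when any other library was left out. Of the 8, only Cenpq passed with the number set term (0.73, adjusted p = 0.0381).

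Of the KMN network, which holds the microtubule-binding site of the kinetochore, 6 of 8 genes rose, with a median log2 fold change of 1.31 over the 8. Casc5, now named Knl1, is the scaffold on which the checkpoint proteins Bub1 and Bub1b dock. It had 7.98, 7.62, 6.21 and 6.54 CPM in the controls and 14.1, 18.6, 18.9 and 13.2 CPM in the libraries labelled Ccna2-KO (1.19 ± 0.17, adjusted p = 0.00269). Control replicate 1 was close to the other controls for this gene, and the high-set difference of 1.09 and the low-set difference of 0.95 (log2 CPM) were alike. Zwint, a partner that binds the scaffold, had 31.1, 31.0, 31.8 and 33.7 CPM and then 38.1, 41.7, 37.8 and 32.6 CPM, and did not pass (0.24 ± 0.10, adjusted p = 0.168).

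All 4 subunits of the Ndc80 complex, the rod that grips the microtubule, rose. Ndc80 had 9.93, 3.59, 2.64 and 3.27 CPM in the controls and 12.4, 15.6, 14.9 and 9.49 CPM in the libraries labelled Ccna2-KO (1.43 ± 0.40, adjusted p = 0.0472). Ccna2-KO replicate 4 lay just below control replicate 1, and the Ndc80 call ended without any 1 of the libraries other than control replicate 1 (adjusted p of 0.0556 to 0.123), with upper quartile scaling (0.0541) and with no filter (0.0569). Nuf2, its partner along the rod, had 10.2, 3.87, 3.04 and 3.48 CPM and then 16.8, 21.4, 20.8 and 11.8 CPM, with no overlap. Its log2 fold change, 1.78 ± 0.39 (adjusted p = 0.0185), was the largest of the 37. Spc24 (1.32 ± 0.33, adjusted p = 0.0328) and Spc25 (1.29 ± 0.30, adjusted p = 0.0229), which tie the rod to the inner kinetochore, had fold changes within the error of that of Ndc80.

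Of the Mis12 complex, which links the inner layer to the outer KMN proteins, Dsn1 and Nsl1 passed the test, and Mis12 and Pmf1 had positive values that did not pass. Dsn1 had 6.86, 3.83, 2.31 and 2.54 CPM in the controls and 11.1, 13.5, 12.9 and 8.86 CPM in the libraries labelled Ccna2-KO (1.58 ± 0.34, adjusted p = 0.0165). Nsl1, a further subunit outside the 37 genes, had 5.82, 2.87, 2.43 and 2.82 CPM and then 10.9, 11.1, 13.5 and 10.7 CPM (1.73 ± 0.27, adjusted p = 0.00498). For both genes the groups did not overlap. Mis12 had 18.2, 17.8, 15.3 and 18.6 CPM and then 22.9, 26.0, 21.8 and 18.4 CPM (0.35 ± 0.13, adjusted p = 0.116), and Pmf1 had means of 14.3 and 18.8 CPM (0.40 ± 0.30, adjusted p = 0.450). A difference in response between subunits was not tested. Dsn1, Nsl1, Mis12 and Pmf1 are shown together because they form 1 complex, a choice made after their values were seen.

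**Figure D3:**
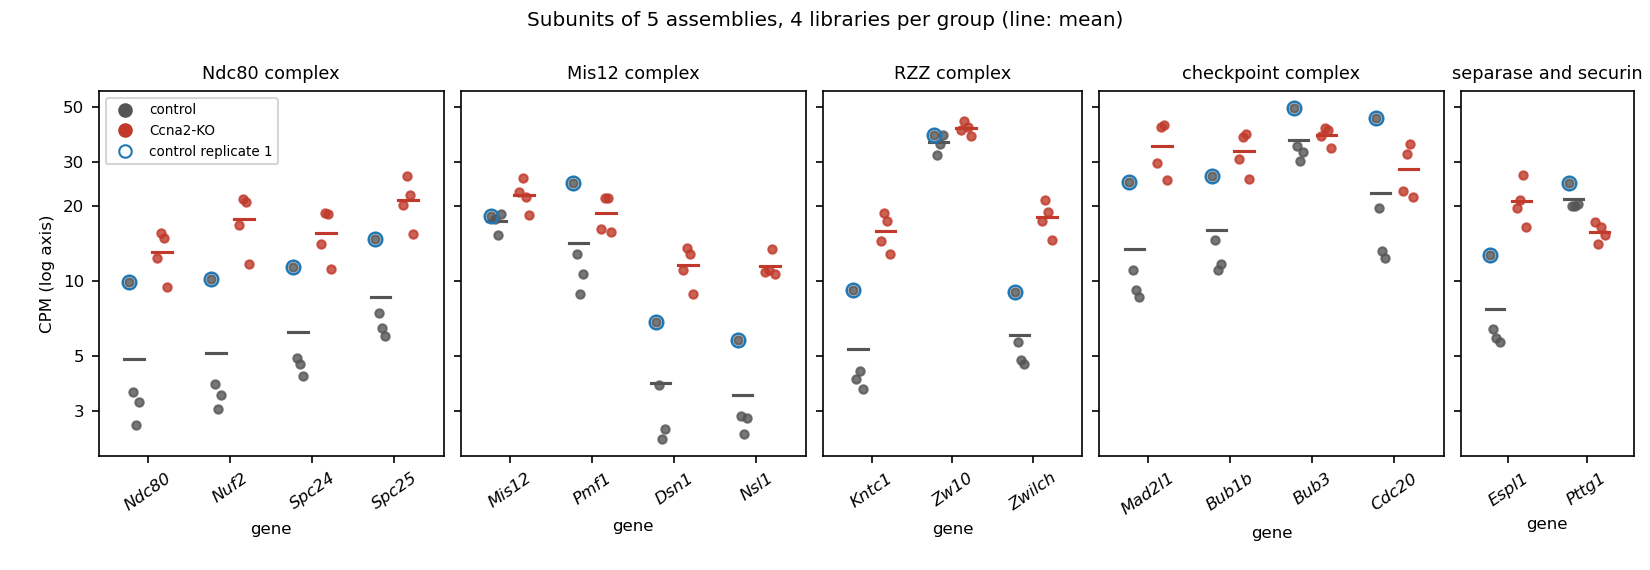
CPM on a log axis for subunits of the Ndc80, Mis12 and RZZ complexes, the checkpoint complex, and separase with securin; grey points are controls, red points libraries labelled Ccna2-KO, lines group means, and a blue ring marks control replicate 1. Dsn1 and Nsl1 are separated between the groups while Mis12 and Pmf1 overlap, and Pttg1 is lower in red where Espl1 is higher.

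The 4 corona genes, whose products form the outermost layer of an unattached kinetochore, all rose with no overlap between the groups. Kntc1 and Zwilch are subunits of the RZZ complex, which brings the checkpoint protein Mad1 and the motor dynein to the kinetochore. Kntc1 had 9.16, 4.03, 4.34 and 3.70 CPM in the controls and 14.5, 18.7, 17.5 and 12.9 CPM in the libraries labelled Ccna2-KO (1.59 ± 0.29, adjusted p = 0.00933). Zwilch rose by a like amount (1.58 ± 0.23, adjusted p = 0.00338), from a mean of 6.05 ± 2.04 to 18.0 ± 2.77 CPM (SD, n = 4 each). Zw10, the remaining subunit of the complex, which also acts in membrane traffic, had means of 36.2 and 41.2 CPM and did not pass (0.19 ± 0.10, adjusted p = 0.260).

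Cenpf, a large coiled-coil protein that binds microtubules, had 20.4, 16.7, 13.7 and 16.1 CPM in the controls and 27.0, 32.5, 41.5 and 25.7 CPM in the libraries labelled Ccna2-KO (0.92 ± 0.18, adjusted p = 0.0115). Cenpe, a kinesin that moves chromosomes to the spindle equator, rose by 0.94 ± 0.22 on the log2 scale (adjusted p = 0.0266). The Cenpe and Cenpf calls ended with replicate number as a block (adjusted p = 0.0546 and 0.0518).

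In the spindle checkpoint, the kinase Bub1 and the inhibitors Bub1b and Mad2l1 rose, and Bub3 and Ttk did not pass. Mad2l1, which with Bub1b holds back the activator of the anaphase-promoting complex, had 24.9, 11.1, 9.23 and 8.63 CPM in the controls and 29.96, 41.6, 42.5 and 25.4 CPM in those labelled Ccna2-KO. The groups did not overlap, although Ccna2-KO replicate 4 and control replicate 1 nearly met, and the log2 fold change was 1.37 ± 0.35 (adjusted p = 0.0319). Bub1 had 11.5, 6.22, 5.44 and 6.63 CPM and then 16.0, 21.9, 19.9 and 12.001 CPM, again with no overlap (1.23 ± 0.27, adjusted p = 0.0182). Bub1b, which encodes BubR1, had 26.6, 14.6, 11.1 and 11.7 CPM and then 30.9, 37.9, 39.0 and 25.8 CPM. Ccna2-KO replicate 4 lay below control replicate 1, and the log2 fold change was 1.07 ± 0.28 (adjusted p = 0.0370).

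Bub3, an adaptor that binds Bub1 and Bub1b and is also needed outside mitosis, had 49.8, 34.9, 30.5 and 33.0 CPM in the controls and 38.5, 41.4, 40.7 and 34.3 CPM in the libraries labelled Ccna2-KO. Control replicate 1 was above all 4 of those libraries, and the log2 fold change was 0.06 ± 0.16 (adjusted p = 0.846), which turned to -0.12 with the number set term and to -0.02 without control replicate 3. Ttk, the kinase Mps1 that starts checkpoint signalling, did not pass (1.21 ± 0.40, adjusted p = 0.0862) but passed with the number set term (0.76, adjusted p = 0.0414). Per kilobase of transcript, the mean Bub3 level was 15.6 CPM in the controls and 16.4 CPM in the libraries labelled Ccna2-KO. On the same scale Bub1b had 4.14 and 8.47 CPM, Bub1 2.18 and 5.03 CPM and Ttk 1.73 and 3.91 CPM. Bub3 was thus the most abundant of these 4 transcripts in both groups, and by a smaller margin over the others in the libraries labelled Ccna2-KO. Cdc20, the activator that the checkpoint restrains, had 45.3, 19.8, 13.2 and 12.4 CPM in the controls and then 23.0, 32.3, 35.5 and 21.8 CPM, with control replicate 1 the highest of all (0.32 ± 0.39, adjusted p = 0.673).

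Of the chromosomal passenger complex, 1 of 4 genes passed. Incenp, the scaffold of the complex, rose by 1.04 ± 0.22 (adjusted p = 0.0154), from 25.5 ± 8.49 to 52.5 ± 8.77 CPM, with no overlap. Aurkb, its kinase, had 21.7, 7.94, 6.58 and 6.12 CPM in the controls and 23.5, 31.4, 32.5 and 19.2 CPM in those labelled Ccna2-KO. The log2 fold change, 1.34 ± 0.40, was larger than that of Incenp, but control replicate 1 lay among the libraries labelled Ccna2-KO and the gene did not pass (adjusted p = 0.0602, and 0.0180 with the number set term).

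Birc5, which encodes survivin, had 30.7, 12.5, 10.9 and 10.4 CPM in the controls and 29.3, 35.1, 38.4 and 20.7 CPM in the libraries labelled Ccna2-KO (0.94 ± 0.36, adjusted p = 0.129). Cdca8, which encodes borealin, had 28.3, 11.6, 9.62 and 8.94 CPM and then 22.6, 30.7, 32.9 and 21.1 CPM (0.88 ± 0.36, adjusted p = 0.155). For both genes 2 of the 4 libraries labelled Ccna2-KO lay below control replicate 1. Both passed without it, with adjusted p of 0.00103 for Birc5 and 0.000663 for Cdca8. Neither passed when any other library was left out (adjusted p up to 0.281 for Birc5 and 0.319 for Cdca8).

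Among the kinases that drive spindle assembly, Nek2 rose, and Aurka and Plk1 did not pass. Nek2, which separates centrosomes, had 26.4, 15.8, 11.4 and 10.5 CPM in the controls. It had 30.6, 41.0, 43.9 and 26.4 CPM in the libraries labelled Ccna2-KO (1.15 ± 0.30, adjusted p = 0.0359), with replicate 4 just below control replicate 1. Aurka, the centrosomal Aurora kinase, had 18.0, 7.70, 6.40 and 6.94 CPM and then 16.0, 20.6, 21.4 and 13.6 CPM (0.88 ± 0.33, adjusted p = 0.126). Tpx2, its activator on the spindle, had a similar value, 0.86 ± 0.35 on the log2 scale (adjusted p = 0.159), and for both genes 2 of the 4 libraries labelled Ccna2-KO were below control replicate 1.

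Plk1, a kinase of mitotic entry and kinetochore attachment, had 94.6, 45.4, 51.9 and 54.7 CPM in the controls and 65.4, 78.2, 72.8 and 55.3 CPM in those labelled Ccna2-KO. The highest value was that of control replicate 1, and the log2 fold change was 0.14 ± 0.22 (adjusted p = 0.752), or -0.13 with the number set term (adjusted p = 0.488). Without control replicate 1 it was 0.42 and passed (adjusted p = 0.0286). Plk1 did not pass when any other library was left out (adjusted p up to 0.978). Per kilobase of transcript, Plk1 had the highest mean of the 22 genes with a usable length in both groups (28.04 ± 10.2 and 30.9 ± 4.50 CPM, SD). Birc5 was close to it in the libraries labelled Ccna2-KO (29.7 ± 7.63 CPM). Cenpn had the lowest mean in both groups (1.41 ± 0.924 and 2.85 ± 0.317 CPM), with Cenpw close to it in the controls (1.48 ± 1.13 CPM).

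**Figure D4:**
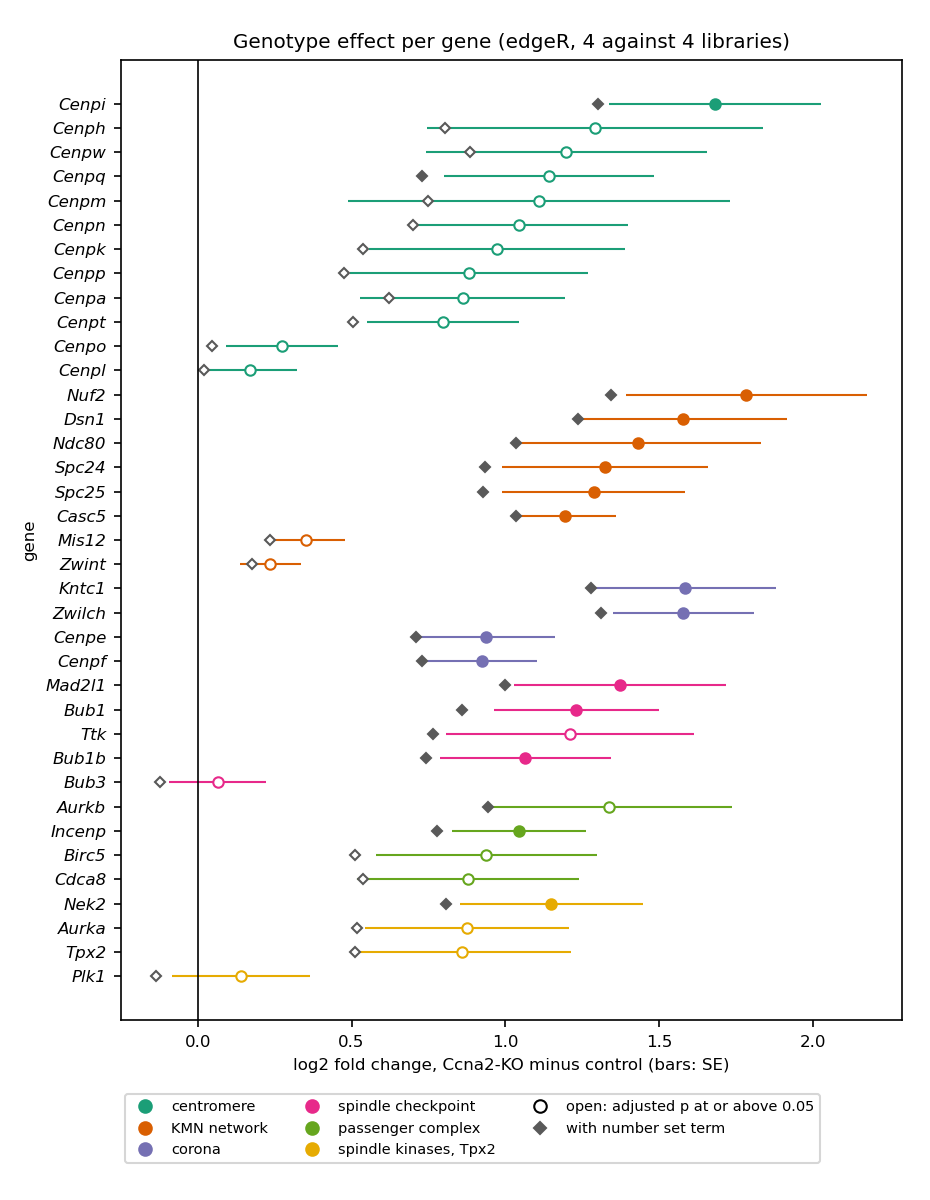
Log2 fold change between the labelled groups for each gene (circles, with SE bars, filled where adjusted p is under 0.05), grouped and coloured by role, with the value from the fit with a number set term as grey diamonds. Circles lie between 0.06 (Bub3) and 1.78 (Nuf2); with the set term the diamonds of Bub3 and Plk1 lie below 0.

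At the level of single transcripts, 95 of 135 annotated transcripts of the 37 genes were tested among 38384 transcripts, and 2 passed, 1 each of Kntc1 and Cenpi, where 0.93% of all transcripts tested passed in either direction. The Kntc1 transcript held 71.1% of the counts of the gene. It had 1.498, 3.42, 4.00 and 2.73 CPM in the controls and 11.7, 12.3, 14.4 and 10.8 CPM in the libraries labelled Ccna2-KO (2.08 ± 0.31, adjusted p = 0.0329). Control replicate 1 was the lowest library for this transcript, whereas it was the highest control for the gene as a whole. Estimated counts of single transcripts depend on how reads shared by several transcripts were divided.

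A further list, also chosen with earlier results of these data known, held 57 other genes. They belong to the kinetochore, the checkpoint, chromatid cohesion and the spindle, and 56 of them were tested. 17 rose and 1 fell, where 6.4% of all genes tested were called higher and 5.71% lower, and the median log2 fold change was 0.68. The 3 largest were those of Nsl1, given above, Ska1 (1.66 ± 0.38, adjusted p = 0.0223), of the Ska complex that follows microtubule ends, and Trip13 (1.60 ± 0.28, adjusted p = 0.00731), the ATPase that takes checkpoint complexes apart. Trip13 had 7.25, 3.71, 3.11 and 3.06 CPM in the controls and 12.2, 14.2, 14.1 and 11.3 CPM in the libraries labelled Ccna2-KO, with no overlap. Leaving out control replicate 1 gave 41 that rose, where 15.1% of all genes were called higher. Leaving out another library gave 5 to 17, where 572 to 947 of all genes were called higher, against 1017 with all libraries.

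The gene that fell was Pttg1, which encodes securin, the inhibitor of the protease separase. It had 24.8, 19.95, 20.1 and 20.3 CPM in the controls and 17.4, 14.1, 16.5 and 15.3 CPM in the libraries labelled Ccna2-KO, with no overlap (-0.43 ± 0.12, adjusted p = 0.0465). The Pttg1 call ended without any 1 of the libraries other than control replicate 1, with upper quartile scaling, with no filter and with replicate number as a block. Espl1, which encodes separase, rose (1.45 ± 0.28, adjusted p = 0.0108), from 12.8, 6.38, 5.90 and 5.66 CPM to 19.6, 21.2, 26.7 and 16.5 CPM. The other 2 of the 3 smallest values were those of Clasp2, which stabilises microtubules (-0.07 ± 0.15, adjusted p = 0.814), and Mad2l1bp, which encodes the checkpoint silencer p31comet (-0.06 ± 0.15, adjusted p = 0.855). Their groups overlapped.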

How the data were processed

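The authors deposited expected counts (estimated counts) per RefSeq transcript for 8 libraries, made with kallisto on mouse GRCm38 (mm10) per the submitters' processing notes; its version is not stated. Kallisto divides reads that fit several transcripts between them. The 687 of 107193 transcripts without a symbol (3.19% to 5.51% of counts, 27162083 to 34386731 per library) were left out. Counts were summed per symbol and rounded.

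All 15893 genes kept by edgeR 4.0.16 (R 4.3.3) were fitted with TMM scaling and the robust quasi-likelihood test of genotype, with Benjamini-Hochberg adjustment and a threshold of 0.05. SEs belong to log2 fold changes and were computed as the absolute log2 fold change divided by the square root of the F statistic. Log2 CPM used a prior count of 2. Alternatives were RLE and upper quartile scaling, other filters, DESeq2 1.42.0, limma 3.58.1 voom, non-robust estimates, a replicate block, a number set term, single transcripts and each library left out. The fit was tested on simulated data.

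Levels per kilobase use GENCODE lengths, for genes with at least 80% of their counts on transcripts with a length. The members and lists were chosen with earlier results of these data known. Values in every library were given for 10 genes set by name and the largest and smallest change in each role group; of the other list, the 3 largest and 3 smallest changes. Dsn1, Zwilch, Cenpm, Mis12, Pmf1, Zw10, Cdc20 and Espl1 were added after their values were seen. Promoters are from RefSeq, a gene with several windows counting once. A further promoter sequence is not reported here. No library repeated the counts of another.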

Additional observations from a re-analysis of the deposited data

Results flagged for a closer look

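In 5 of the 74 groups of 4 libraries examined (37 genes, both groups), 1 library lay far from the other 3; chance flags about 5% of such groups. Control replicate 1 was the high one for 4 genes: Cenpk (7.07 CPM, against 2.03 to 2.51 in the other controls), Cenpo (9.62 CPM, against 6.49 to 6.62), Spc24 (11.4 CPM, against 4.15 to 4.91) and Birc5 (30.7 CPM, against 10.4 to 12.5). Ccna2-KO replicate 4 was the low one for Cenpl (8.43 CPM, against 9.35 to 9.47 in the other 3).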

How the results depend on the processing

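Of the 37 genes, 14 (replicate block) to 23 (limma voom) rose and 0 fell under the settings that kept all libraries, and the median log2 fold change stayed between 0.74 (number set term) and 1.199 (limma voom). With single libraries left out, 5 to 32 rose, 0 fell, and the median was 0.923 to 1.505. All genes gave 572 to 2457 higher and 400 to 2170 lower calls in those fits. The replicate block gave 619 higher and 368 lower calls, DESeq2 1408 lower and the number set term 1415 lower, against 1017 higher and 907 lower. Among the other 56 spindle and kinetochore genes, 26 (DESeq2) and 8 (replicate block) rose, and 5 to 41 with single libraries left out; 0 fell with upper quartile scaling, no filter or the replicate block, and 0 or 1 with single libraries left out. With the most abundant single transcript, 15 of the 16 genes no longer passed, at log2 fold changes of 0.77 (Incenp) to 1.76 (Nuf2); Dsn1 and Ndc80 have 1 transcript each, so for them the fold stayed at 1.58 and 1.43 and the fit and adjustment over 38384 transcripts changed. Signs turned for Bub3 (-0.12 with the set term, -0.0202 to 0.242 with single libraries left out, the negative value without control replicate 3) and Plk1 (-0.13 with the set term). The CHR share was 53.1% in the whole promoter window and 46.9% within 50 bases of the start. The cause of these changes was not tested. Same-numbered libraries did not deviate together (correlations of -0.35 to 0.15). With 1 correlation per replicate number, this cannot decide whether the numbers pair the samples. The replicate block ended 2 of the 16 calls, those of Cenpe and Cenpf, giving 14. Precision is limited by 4 libraries a group.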
